A study of Mus musculus with 4 samples.

Results

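The genes of the CSF1 axis and of macrophage identity were followed in cultured C57BL/6 mouse cells. The 9 genes were chosen by name, with earlier results of these data known. They comprise the ligands Csf1 and Il34, their receptor Csf1r, the transcription factors Spi1 and Irf8, and the macrophage genes Adgre1, Cd68, Lyz2 and Mpeg1. All 9 were measured, among 19938 genes in all. Each was represented by 1 probe set of an Affymetrix gene array, so that taking the probe set with the highest mean involved no choice for these genes. The purpose stated for the series was to compare effects of basic fibroblast growth factor (bFGF, FGF2) on mesenchymal stem cells (MSC) of the bone marrow.

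There were 4 cultures with 1 array each. MSC with bFGF were marrow cells flushed from femurs and tibiae, selected by adherence to plastic and grown in Coon's modified F12 medium with fetal calf serum and 1 ng/ml bFGF. MSC without bFGF were obtained and grown in the same way without the factor. The osteoblasts (OB) were cells released by trypsin and collagenase from the calvariae, the flat skull bones, of newborn mice, pooled from the last digestions and grown in DMEM with serum. The embryonic stem cells (ESC) were a further control, for which the labels give no culture conditions. The age of the MSC donors is not given in the sources used here. Plastic adherence and serial digestion enrich for stromal cells and bone cells without sorting them, so other adherent cells can persist.

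CSF1 and IL-34 are secreted cytokines that bind the same receptor tyrosine kinase, CSF1R, and signalling through it keeps monocytes, macrophages and osteoclast precursors alive and dividing. In bone marrow, stromal and osteoblast lineage cells make CSF1, and the haematopoietic cells next to them carry the receptor. The transcription factors PU.1 (the product of Spi1) and IRF8 direct progenitors to the monocyte and macrophage fate, and PU.1 activates Csf1r itself.

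Levels are log2 values on the deposited scale. The floor used to separate signal from background was the median of each array's probe sets with 1 gene symbol, at 6.32 in MSC with bFGF, 6.29 in MSC without bFGF, 6.46 in osteoblasts and 6.46 in ESC. A difference is the log2 level in the culture named first minus that in the other, and 2-fold is a difference of 1. With 1 array per culture no test was possible and no SD between cultures exists for any value. A technical spread is given in its place, from genes with 2 probe sets of mean level above the floor. It is the SD of the disagreement between the 2 probe sets in such a difference, scaled to 1 probe set. It was 0.19 for MSC with against without bFGF and up to 0.28 in the other pairs. It does not measure variation between cultures and does not cover levels under the floor. Over 1190 olfactory and vomeronasal receptor genes the SD of the differences was larger, 0.44 in the MSC pair and 0.39 to 0.46 in the others.

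Checks of the labels gave a mixed picture. Of 8 pluripotency markers 1 lay above the floor in MSC with bFGF, 0 did in MSC without bFGF and in osteoblasts, and 6 did in ESC, with Pou5f1 at 10.63 and Nanog at 9.24. The ESC array also carried stromal and macrophage transcripts, with 7 of 10 stromal markers and 5 of the 7 macrophage genes above the floor. In the osteoblast array 9 of 10 stromal markers were above the floor, but 0 of 5 osteoblast markers (Sp7, Ibsp, Alpl, Dmp1 and Phex) were, while all 7 macrophage genes were. The osteoblast list held 7 genes, of which Bglap and Spp1 were not measured, so that it is incomplete. In the MSC arrays 6 of 10 stromal markers were above the floor in each, with list medians of 6.74 in MSC with bFGF, 7.80 in MSC without bFGF, 9.43 in osteoblasts and 8.44 in ESC. The macrophage genes were above the floor in 7 of 7 cases in MSC with bFGF and 5 of 7 in MSC without. By its definition the floor is exceeded by 49.6% to 50% of all genes in each array. The 7 of 7 in MSC with bFGF and osteoblasts lie well beyond that share. The 5 of 7 in MSC without bFGF and in ESC lie nearer to it. In ESC Lyz2 and Adgre1 were high all the same, at 11.14 and 9.05, whereas in MSC without bFGF the highest was Lyz2 at 8.32. The labels of the arrays name no macrophages. No array can be left out of its own comparison, since each is the single array of its culture.

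The ligand genes were highest in the MSC. Csf1 stood at 11.14 in MSC with bFGF, 10.75 in MSC without bFGF, 10.12 in osteoblasts and 9.02 in ESC, above the floor in all 4 arrays. Its level was thus highest in MSC with bFGF and followed the order MSC, osteoblasts, ESC. The difference between the MSC arrays was 0.39, or 1.31-fold, and 87.6% of genes above the floor had a smaller signed difference. Against osteoblasts Csf1 was higher by 1.02 in MSC with bFGF and by 0.63 in MSC without. The first of these lies at the 2-fold line and was under it, between 0.92 and 0.93, under each of the 3 alternative scalings.

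Il34 had the opposite order within the MSC pair. Its level was 8.26 in MSC with bFGF, 8.86 in MSC without bFGF, 7.09 in osteoblasts and 5.97 in ESC, the last under the floor. The difference between the MSC arrays was -0.60, and 3.21% of genes above the floor had a more negative one. Against osteoblasts Il34 was higher by 1.18 in MSC with bFGF and by 1.78 in MSC without, and against ESC by 2.29 and 2.89. Both ligands were therefore higher in either MSC array than in either control, and the MSC arrays differed from each other by less than 2-fold for both.

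The receptor gene was distributed differently from its ligands. Csf1r stood at 10.56 in MSC with bFGF, 7.31 in MSC without bFGF, 11.27 in osteoblasts and 7.30 in ESC. The values lay at 2 levels, a high one in osteoblasts and MSC with bFGF and a low one, still above the floor, in MSC without bFGF and ESC. Csf1r was 9.52-fold higher with bFGF than without (difference 3.25), the largest difference among the 9 genes, and 99.8% of genes above the floor had a smaller one. MSC with bFGF were 0.71 below osteoblasts, under 2-fold. The low levels in MSC without bFGF and in ESC differed by 0.01, well inside the technical spread. In such bulk RNA, fewer cells of a type and less RNA per cell cannot be told apart.

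The transcription factor genes were likewise higher in osteoblasts and MSC with bFGF than in the other 2 arrays, though not at 2 even levels. Spi1, which encodes PU.1, stood at 7.75 in MSC with bFGF, 5.52 in MSC without bFGF, 8.99 in osteoblasts and 5.79 in ESC. It was above the floor in MSC with bFGF and osteoblasts and under it in the other 2 arrays, so that the size of its difference of 2.23 between the MSC arrays depends on background. Irf8, whose product partners PU.1 on DNA, stood at 8.66 in MSC with bFGF, 6.67 in MSC without bFGF, 9.07 in osteoblasts and 5.92 in ESC. The difference between the MSC arrays was 1.99. Irf8 in MSC with bFGF was only 0.42 below osteoblasts, the smallest gap to osteoblasts among the 7 macrophage genes, whereas Spi1 was 1.24 below.

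**Figure D1:**
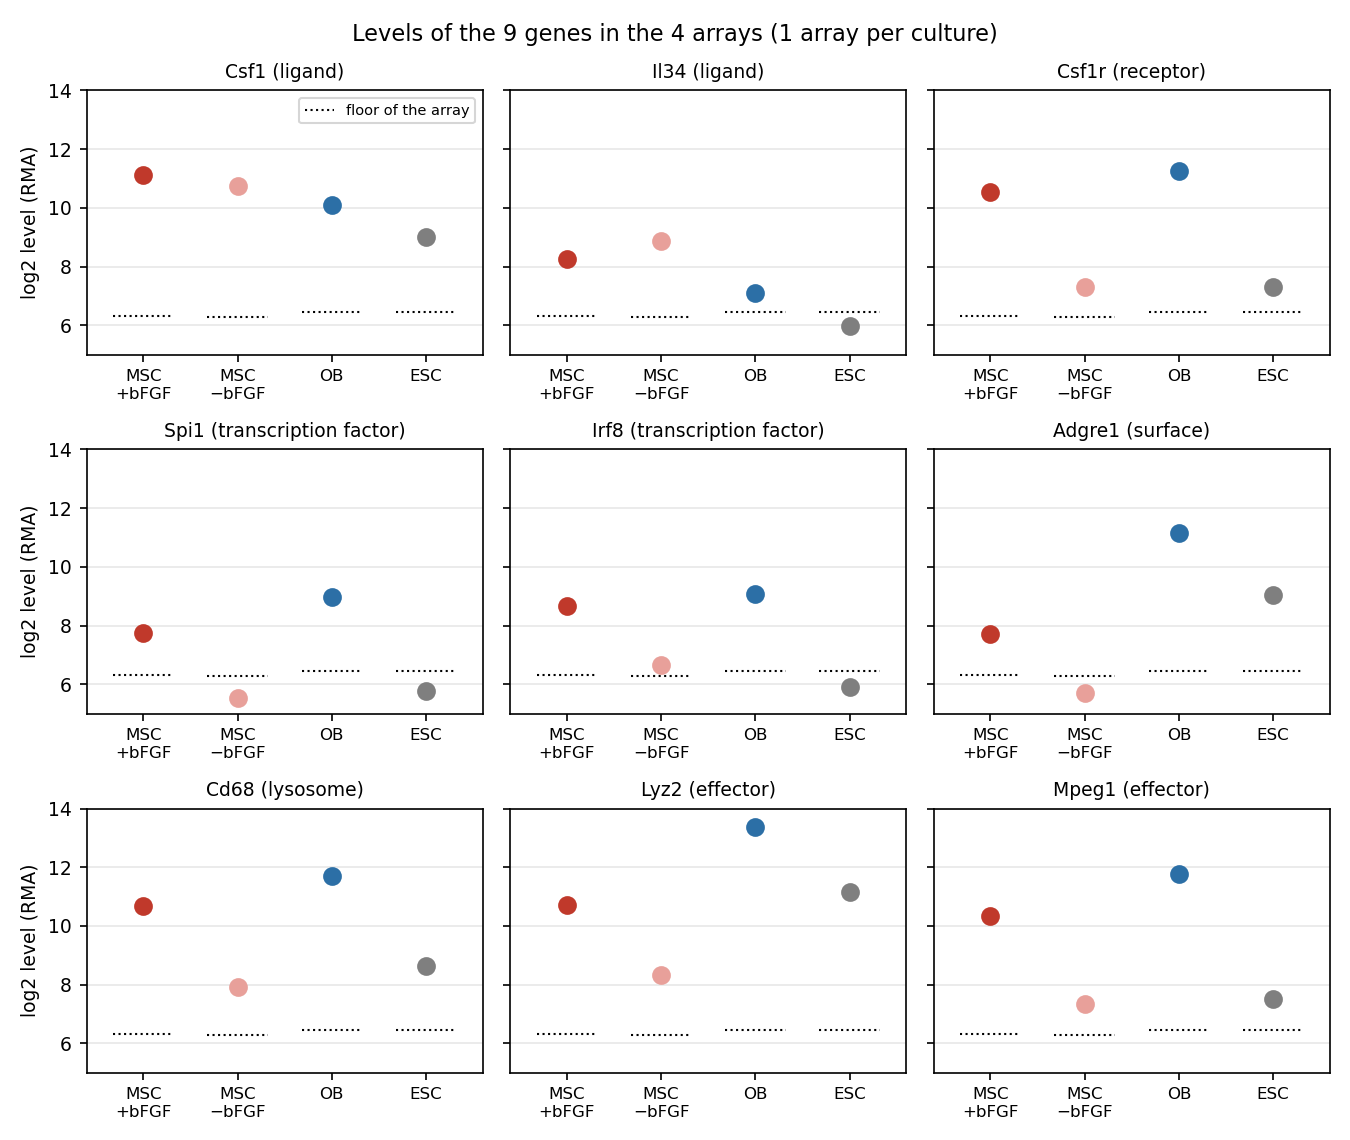
Log2 level (y axis) of each of the 9 genes in MSC with bFGF, MSC without bFGF, osteoblasts (OB) and embryonic stem cells (ESC). Each point is 1 array and the dotted lines mark the floor of each array. Csf1 and Il34 are highest in the MSC, while the other 7 genes are highest in osteoblasts and higher in MSC with bFGF than without.

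The surface and lysosome genes were also highest in osteoblasts. Adgre1, an adhesion receptor whose product is widely used to stain mouse macrophages, stood at 7.71 in MSC with bFGF, 5.69 in MSC without bFGF, 11.16 in osteoblasts and 9.05 in ESC. Without bFGF it was under the floor, and with bFGF it was 2.02 higher yet still below ESC by 1.34. Cd68, a heavily glycosylated protein of late endosomes and lysosomes, stood at 10.66 in MSC with bFGF, 7.92 in MSC without bFGF, 11.71 in osteoblasts and 8.63 in ESC. The difference between the MSC arrays was 2.75, and MSC with bFGF lay 1.05 below osteoblasts.

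The effector genes completed the set. Mpeg1, which encodes the pore-forming protein perforin-2, stood at 10.36 in MSC with bFGF, 7.33 in MSC without bFGF, 11.77 in osteoblasts and 7.50 in ESC. Its difference between the MSC arrays, 3.03 or 8.17-fold, was the second largest of the set after Csf1r. Lyz2, the lysozyme gene of macrophages and other myeloid cells, stood at 10.71 in MSC with bFGF, 8.32 in MSC without bFGF, 13.37 in osteoblasts and 11.14 in ESC. It was 2.39 higher with bFGF than without, but in MSC with bFGF it remained 0.43 below ESC. The neighbouring gene Lyz1 is a near-identical copy, so that signal may be shared between their probes, and both values are uncertain to that extent. Lyz1 stood at 7.14 in MSC with bFGF, 6.34 in MSC without bFGF, 9.13 in osteoblasts and 7.05 in ESC, with a difference of 0.80 between the MSC arrays.

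The promoters of Cd68, Mpeg1 and Lyz2 are printed because these genes were high and low in the same MSC arrays as Spi1 and Irf8, whose products bind DNA of known letter patterns. The windows are from RefSeq on GRCm38.p6 and hold 250 bases before and 50 bases after the annotated start, 5′ to 3′ on the strand of the gene. Cd68 is at chr11:69666121-69666420 (minus strand), Mpeg1 at chr19:12460520-12460819 (plus strand) and Lyz2 at chr10:117282223-117282522 (minus strand). Capitals mark GAGGAA, a core that PU.1 binds, and GGAA followed, after any 2 bases, by GAAA, a composite pattern of PU.1 with an interferon regulatory factor. Both strands were searched.
Cd68: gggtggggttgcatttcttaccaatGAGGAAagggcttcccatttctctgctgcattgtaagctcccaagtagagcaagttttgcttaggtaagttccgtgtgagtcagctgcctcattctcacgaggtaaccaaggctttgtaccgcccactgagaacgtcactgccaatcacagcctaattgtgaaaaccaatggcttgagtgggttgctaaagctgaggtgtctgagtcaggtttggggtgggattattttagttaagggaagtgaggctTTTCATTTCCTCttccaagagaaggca
Mpeg1: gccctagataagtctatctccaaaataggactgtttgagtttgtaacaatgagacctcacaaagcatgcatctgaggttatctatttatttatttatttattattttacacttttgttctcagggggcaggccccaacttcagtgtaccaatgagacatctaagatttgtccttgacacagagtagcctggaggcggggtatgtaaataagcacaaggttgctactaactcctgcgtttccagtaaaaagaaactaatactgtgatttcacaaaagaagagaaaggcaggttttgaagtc
Lyz2: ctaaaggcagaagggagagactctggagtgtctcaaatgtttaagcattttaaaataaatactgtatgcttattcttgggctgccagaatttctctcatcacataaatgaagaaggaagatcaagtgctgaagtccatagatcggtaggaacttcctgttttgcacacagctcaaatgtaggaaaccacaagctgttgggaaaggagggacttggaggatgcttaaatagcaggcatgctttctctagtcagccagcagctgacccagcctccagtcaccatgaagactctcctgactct
Windows of 5 of the 9 genes were searched, those named here with Csf1 and Irf8, and they numbered 6 because Irf8 has 2. The promoters of Csf1r, Il34, Spi1 and Adgre1 were not searched, so the counts below say nothing of them. GAGGAA was found in 1 of the 6, that of Cd68, where it occurs at bases 26 to 31 and, on the opposite strand, at bases 280 to 285 of the window. The composite pattern was found in the same window alone, at bases 274 to 283 on the opposite strand, where it overlaps the second GAGGAA. Among all 32851 promoter windows of this length 28.3% hold GAGGAA and 2.72% hold the composite pattern. TATAAA, which was searched as well, was found in 1 Irf8 window, at bases 220 to 225, and in 13.6% of all windows. These matches describe the letters of the windows and were not tested against the levels.

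Set beside each other, the 9 genes separated by role in the comparison of the MSC arrays. Of the 9 genes 7 were 2-fold or more higher in MSC with bFGF than in MSC without, and 0 were lower, where 4.09% of the 10483 genes above the floor were higher and 0.467% were lower. The 7 were Csf1r, Spi1, Irf8, Adgre1, Cd68, Lyz2 and Mpeg1, and the remaining 2 were the ligands. Because the members and the lists below were chosen with earlier results known, counts above these shares are descriptive and no independent support. The median over the 9 genes was 2.23, against 0.00 over all genes above the floor. Differences of the 7 macrophage genes ran from 1.99 to 3.25, a range of 1.26. Of the 7, Spi1 and Adgre1 were under the floor without bFGF, so that their sizes may be compressed.

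Against osteoblasts the differences of the macrophage genes were spread more widely than between the MSC arrays. MSC with bFGF were 2-fold or more lower for 5 of the 9 genes, where 9.71% of genes above the floor were lower, and 2-fold or more higher for 2, the ligands, where 7.5% were higher. The 7 macrophage genes all lay below 0, but their differences ran from -0.42 for Irf8 to -3.45 for Adgre1, a range of 3.03. All 7 were above the floor in MSC with bFGF and in osteoblasts. Spi1 and Adgre1 were under it in MSC without bFGF, so that the range between the MSC arrays is not strictly comparable. Irf8 and Csf1r were 1.33-fold and 1.63-fold lower, Cd68, Spi1 and Mpeg1 were 2.07-fold, 2.36-fold and 2.67-fold lower, and Lyz2 and Adgre1 were 6.32-fold and 10.9-fold lower. In MSC without bFGF all 7 lay below osteoblasts by 2-fold or more, where 13.3% of genes above the floor were lower, with differences from -2.40 for Irf8 to -5.46 for Adgre1. Il34 was the 1 gene of the 9 that was 2-fold or more higher there, where 8.17% of genes were higher. These comparisons share arrays with one another and are not independent.

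**Figure D2:**
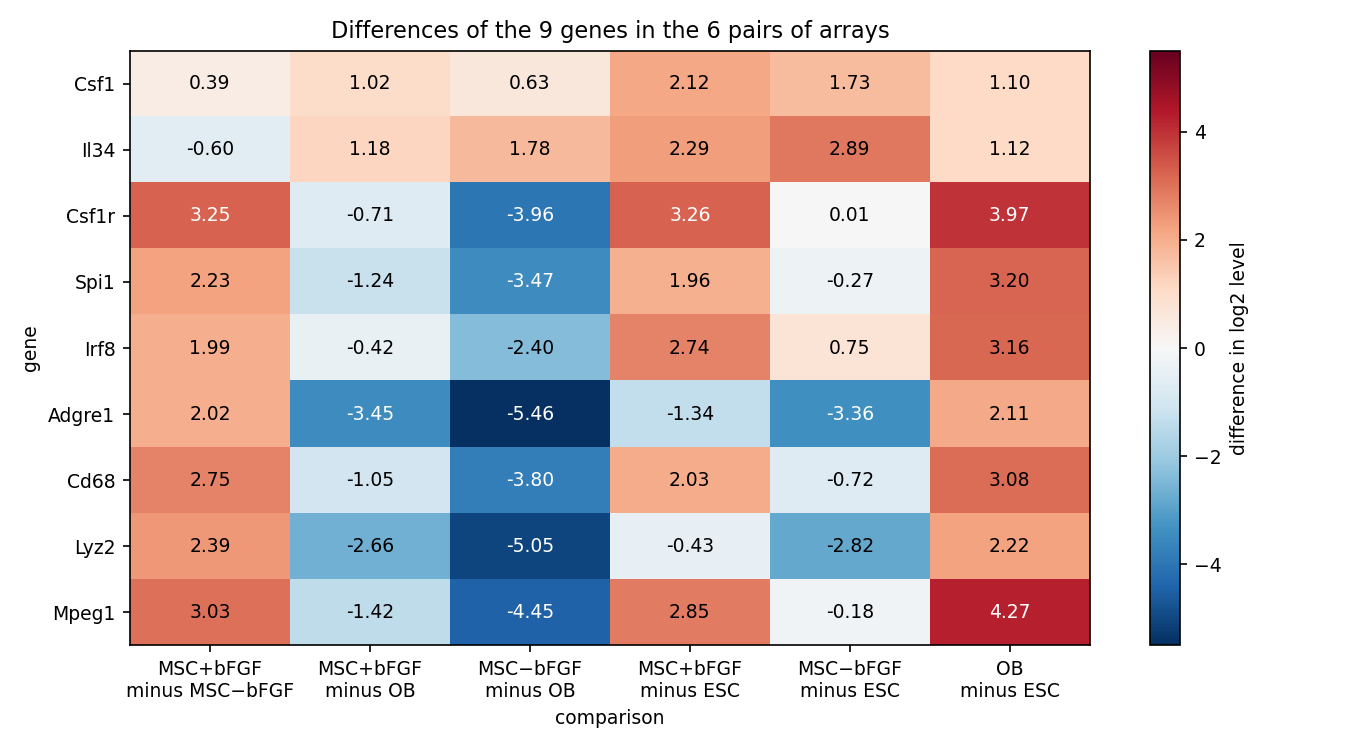
Difference in log2 level (colour and printed value) of the 9 genes (rows) in the 6 pairs of arrays (columns), the array named first minus the other, with 1 array each. Between the MSC arrays the 7 macrophage genes lie between 1.99 and 3.25, whereas in MSC with bFGF minus osteoblasts they spread from -0.42 for Irf8 to -3.45 for Adgre1. Spi1 and Adgre1 were under the floor in MSC without bFGF, so that the ranges are not strictly comparable.

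The ESC array divided the macrophage genes in another way. MSC with bFGF were 2-fold or more higher than ESC for 7 of the 9 genes, where 11.3% of genes above the floor were higher, and lower for 1, Adgre1, where 10.6% were lower. The genes higher in MSC with bFGF were both ligands, Csf1r (3.26), Mpeg1 (2.85), Irf8 (2.74), Cd68 (2.03) and Spi1 (1.96). The median over all genes above the floor was 0.12 in this pair, so that these differences are slightly smaller relative to it. MSC without bFGF were higher than ESC for the 2 ligands, where 10.4% of genes were higher, and lower for 2 genes, Adgre1 (-3.36) and Lyz2 (-2.82), where 11.8% were lower. For Csf1r, Mpeg1 and Spi1 the gap between MSC without bFGF and ESC was under the technical spread, and these were the 3 such gaps among the 27 between neighbours in the order of levels. That spread comes from probe sets above the floor, and Spi1 was under the floor in both arrays. Osteoblasts were 2-fold or more higher than ESC for all 9 genes, where 12.3% of genes were higher and 8.83% lower, from 1.10 for Csf1 to 4.27 for Mpeg1.

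The ESC array thus had Adgre1, Lyz2, Cd68, Mpeg1 and Csf1r above the floor, at 9.05, 11.14, 8.63, 7.50 and 7.30. Spi1 and Irf8 were under it, at 5.79 and 5.92. ESC exceeded MSC with bFGF for Adgre1 and Lyz2, and for none of the other 7 genes.

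Genes whose levels over the 4 arrays were most like those of 3 members were sought among 11326 genes above the floor in at least 1 array. The measure was the root mean square difference between levels centred on each gene's own mean, over 4 arrays. The closest to Csf1 were Zbtb38 and Nfil3, both at 0.06, and Kansl1l at 0.11. The closest to Csf1r were Ptprc, the gene of the leukocyte antigen CD45, at 0.13, the Fc receptor chain Fcer1g at 0.17 and Cd93 at 0.18. The closest to Spi1 were the inositol phosphatase Inpp5d at 0.05, the adaptor Pik3ap1 at 0.09 and the Fc receptor Fcgr1 at 0.13. Nfil3, for example, stood at 9.35 in MSC with bFGF, 9.13 in MSC without bFGF, 8.38 in osteoblasts and 7.32 in ESC, and Inpp5d at 8.18, 5.94, 9.45 and 6.34 in the same arrays.

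**Figure D3:**
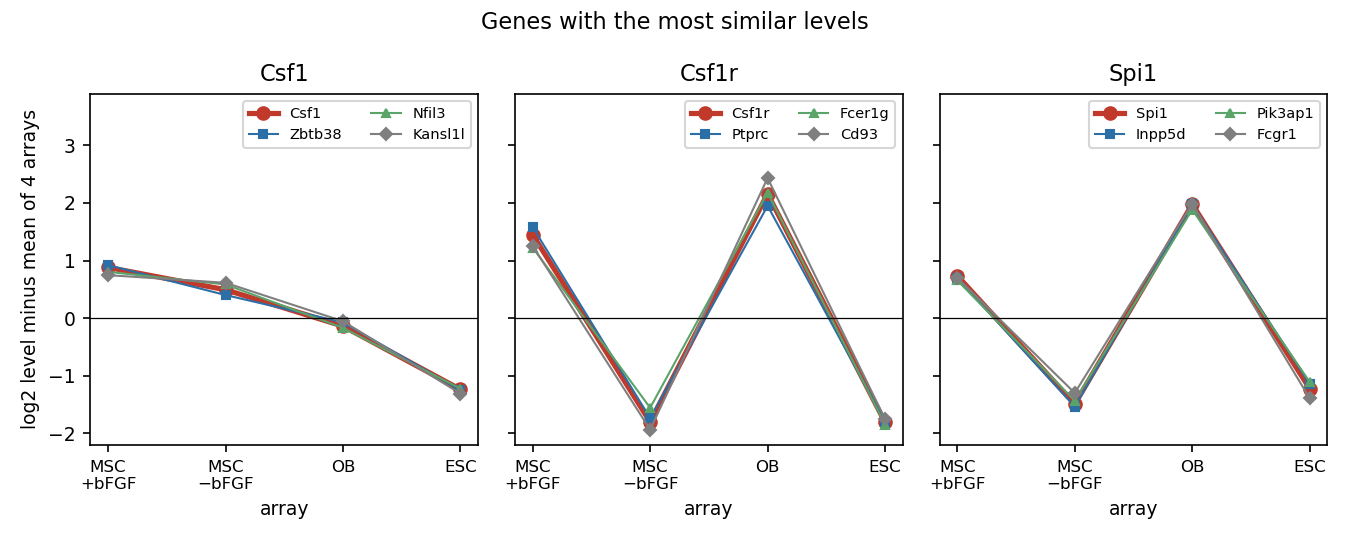
Log2 level minus the gene's mean over the 4 arrays (y axis) for Csf1, Csf1r and Spi1 (thick red lines) and for the 3 genes closest to each, in MSC with bFGF, MSC without bFGF, osteoblasts (OB) and ESC. Lines join the 4 arrays of a gene for the eye; the closest genes differ from the member by a root mean square of 0.05 to 0.18.

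Downstream of the receptor, a list of 33 genes of CSF1R signalling had 28 measured members. In MSC with bFGF 10 of the 28 were higher by 2-fold or more and 0 lower, where 4.09% of all genes above the floor were higher, and the list median was 0.66 against 0.00 over all those genes. Above the floor in this pair lay 26 of the 28, while the list median covers all 28. Tyrobp, the adaptor DAP12 that cooperates with CSF1R, stood at 9.63 with bFGF and 7.06 without. The guanine nucleotide exchange factor Vav1 was 2.49 higher with bFGF, the haematopoietic GTPase Rac2 was 2.43 higher and Inpp5d, the SHIP1 phosphatase, was 2.23 higher. Vav1 and Inpp5d were under the floor without bFGF, so that these sizes depend on background. The other 18 members lay between -0.47 for Dok1 and 0.98 for Was. They included Syk at 0.73, Stat3 at 0.82, Fgr at 0.31, Grb2 at 0.27 and Akt1 at 0.02, and these 7 genes were chosen after their values were seen. Against osteoblasts 9 of the 28 were 2-fold or more lower in MSC with bFGF and 18 in MSC without, where 9.71% and 13.3% of all genes above the floor were lower. Rac2 in MSC with bFGF was level with osteoblasts, at a difference of 0.04.

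Of 17 measured genes of related growth factors and receptors, 10 lay above the floor between the MSC arrays. With bFGF 2 of these were higher by 2-fold or more and 0 lower, where 4.09% of all genes above the floor were higher, and the median over all 17 was 0.33. The 2 were receptor chains for granulocyte-macrophage colony-stimulating factor: Csf2rb stood at 6.68 with bFGF and 5.15 without, and Csf2ra at 8.21 and 6.97. Csf2rb was under the floor without bFGF and not far above it with bFGF, so that its size depends on background. The genes of the cytokines Csf2 and Csf3 were under the floor in all 4 arrays. Of the other binding partners described for IL-34, the syndecan Sdc1 stood at 7.69 in MSC with bFGF, 7.99 in MSC without bFGF, 9.37 in osteoblasts and 8.39 in ESC, and the phosphatase Ptprz1 was under the floor in all 4. Adam17, a protease that sheds CSF1R, differed by 0.31 between the MSC arrays. Kitl, the stem cell factor gene of niche cells, resembled Csf1 in being higher in MSC, at 9.15 in MSC with bFGF and 8.73 in MSC without bFGF, against 6.17 in osteoblasts and 6.21 in ESC. Csf2, Csf3, Sdc1, Ptprz1, Adam17 and Kitl were chosen after their values were seen.

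Of 24 measured transcription factors with roles in myeloid cells, beside Spi1 and Irf8, 3 were higher by 2-fold or more in MSC with bFGF and 0 lower, where 4.09% of all genes above the floor were higher, and the median was 0.36. Above the floor in this pair lay 16 of the 24, while the median covers all 24. Id2, an inhibitor of basic helix-loop-helix factors, stood at 10.14 with bFGF and 8.39 without. Ikzf1, the lymphoid and myeloid regulator Ikaros, stood at 6.47 and 5.17, and Irf5, a factor of macrophage activation, at 7.85 and 6.60. Ikzf1 was close above the floor with bFGF and under it without, so that its size depends on background. Most of the list lay within 2-fold between the MSC arrays, among them Cebpb at 0.68, Klf4 at -0.01 and Zeb2 at -0.15. These 3 genes were picked with their values in view.

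Of 33 measured genes of a list of other macrophage surface and lysosome genes, 15 were higher by 2-fold or more in MSC with bFGF than in MSC without and 0 lower, with a median of 0.80, where 4.09% of all genes above the floor were higher. Above the floor in this pair lay 27 of the 33, while the median covers all 33. The actin-binding protein gene Coro1a stood at 10.17 with bFGF and 6.95 without, and the integrin gene Itgam (CD11b), chosen after its value was seen, at 9.77 and 6.61. Cybb, Cd14 and Ptprc differed by 3.58, 3.32 and 3.31, and Cybb and Ptprc were under the floor without bFGF, so that background bears on both sizes. The 18 genes that were not called included macrophage genes as well as lysosome genes. Among them Mertk differed by -0.73, Cd163 by -0.39, Tlr4 by -0.11, Mrc1 by 0.29, Aif1 by 0.52 and Cx3cr1 by 0.71. Cd163, Mrc1 and Aif1 did not reach the floor with or without bFGF. Cx3cr1 was barely above it with bFGF and under it without. The small differences of these macrophage genes therefore reflect background and do not show equal expression. The lysosome genes Ctsd, Ctsb and Lamp1 differed by 0.31, 0.46 and -0.11. These 9 genes were chosen after their values were seen.

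Several genes of this list were like Adgre1 in their low level in MSC with bFGF relative to osteoblasts. The mannose receptor Mrc1 stood at 4.92 in MSC with bFGF and 10.40 in osteoblasts, and the fractalkine receptor Cx3cr1 at 6.34 and 10.45. The scavenger receptor Cd36 stood at 4.79 and 8.29 and Aif1 at 5.84 and 8.43. In MSC with bFGF Mrc1, Cd36 and Aif1 were under the floor and Cx3cr1 was close above it, whereas Adgre1 stood at 7.71. Background therefore bears on the sizes of these differences. Others were close between the same arrays: Cd14 stood at 10.10 in MSC with bFGF and 9.80 in osteoblasts, Cd53 at 11.10 and 11.07, and Fcgr2b at 8.48 and 7.98. These 7 genes were chosen after their values were seen, to show the ends of the range. The list had a median of -0.92 in that comparison, against 0.09 over all genes above the floor. Of its 33 genes 14 were 2-fold or more lower and 0 higher, where 9.71% of all genes above the floor were lower and 7.5% higher. Above the floor in that pair lay 30 of the 33.

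**Figure D4:**
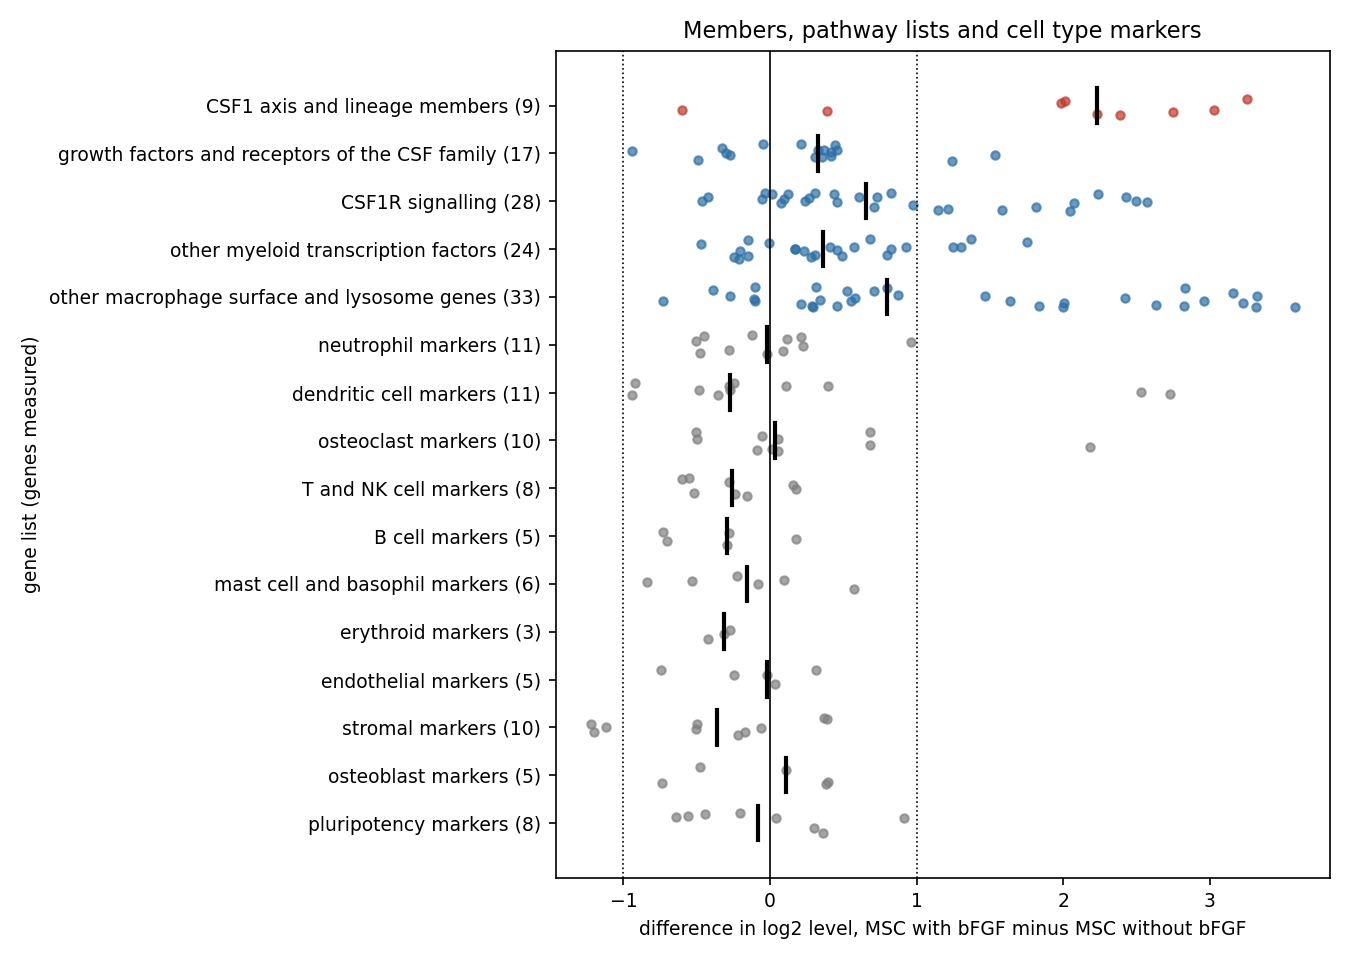
Difference in log2 level, MSC with bFGF minus MSC without bFGF (x axis), for each measured gene (points) of the 9 members, 4 lists of related genes and 11 lists of cell type markers (rows, number measured in brackets). Black bars are list medians and dotted lines mark 2-fold. The members have a median of 2.23 and the cell type lists have medians between -0.36 and 0.11. Of the neutrophil, T and NK cell, B cell, mast cell and basophil, and endothelial markers 0 lay above the floor in this pair. Genes under the floor are included, so that the medians of these lists reflect background.

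Markers of neutrophils and lymphocytes were under the floor. Of 11 neutrophil markers, 8 T and NK cell markers and 5 B cell markers 0 were above the floor in any of the 4 arrays. Neutrophils also express Lyz2, and which cells its signal came from was not tested. Of 11 dendritic cell markers 2 were 2-fold or more higher in MSC with bFGF than without, the integrin gene Itgax (7.82 against 5.09) and the invariant chain gene Cd74 (8.82 against 6.29). These 2 were the dendritic markers above the floor in MSC with bFGF, while Zbtb46 was the 1 above it in MSC without bFGF (6.57) and in ESC (6.66). Of 10 osteoclast markers 1 was 2-fold or more higher with bFGF, the fusion protein gene Dcstamp (7.01 against 4.83). Without bFGF Itgax and Dcstamp were under the floor and Cd74 lay just under it, so that background bears on these sizes. Osteoclast markers above the floor numbered 3 in MSC with bFGF, 1 in MSC without, 3 in osteoblasts and 5 in ESC. Of 10 stromal markers 3 were 2-fold or more lower with bFGF, Dcn (-1.22), Col3a1 (-1.20) and Pdgfrb (-1.12). Over all genes above the floor 4.09% were higher and 0.467% lower in this pair of arrays. Above the floor in the pair lay 3 of the dendritic cell, 3 of the osteoclast and 6 of the stromal markers. Itgax, Cd74, Zbtb46, Dcstamp, Dcn, Col3a1 and Pdgfrb were chosen after their values were seen. The stromal median was -0.36 where the macrophage members had a median of 2.39, and the part of the one in the other was not tested.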

How the data were processed

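Levels of RNA from 4 cultures (C57BL/6 mouse) were measured on Affymetrix arrays, 1 array each. The deposited values come from RMA in Affymetrix Expression Console, per the submitters' processing notes, which name both; RMA corrects background, equalises the distributions of the arrays and summarises probes. The log2 scale of the deposited values was inferred from their range, 1.40 to 14.28. Versions: not given in the sources used here. RMA hides a general shift in RNA per cell, and low levels compress differences. For arrays, their number limits the precision.

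The platform annotation named 1 symbol for 21789 of the 35556 probe sets, several for 1621 and none for 12146. Those with 1 symbol gave 19938 genes, each taken from its probe set with the highest mean. All 9 members matched by Entrez identifier. A gene was counted in a pair if its level in the higher array was above that array's floor, and called at a log2 difference of 1. The counting was tested on simulated data. No test between cultures was possible with 1 array per group.

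The members and gene lists were chosen with earlier results of these data known. Genes named beside the members were the 3 closest to Csf1, Csf1r and Spi1, up to 4 per direction of each of the 4 lists of related genes past 2-fold between the MSC arrays, Lyz1 and the checks of the labels, leaving out predicted and olfactory or vomeronasal receptor genes. Further genes are marked where named. The 6 alternatives were averaging all probe sets of a gene, no floor, a floor at the 75th percentile, centring on the median, repeated quantile normalization and removal of a lowess curve (fraction 0.3). Python 3.11.15, numpy 2.4.6, pandas 2.3.3, statsmodels 0.14.6 and matplotlib 3.10.9 were used.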

Additional observations from a re-analysis of the deposited data

How the results depend on the processing

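The counts of members 2-fold or more higher or lower were recomputed in the 6 pairs of arrays under 6 alternatives. The count that moved by over 1.5 times was that of genes higher in MSC with bFGF than in osteoblasts, from the 2 ligands to 1 (Il34) when differences were centred on their median, when quantile normalization was repeated and when a lowess curve was removed, because Csf1 then lay at 0.93, 0.92 and 0.92. Of 216 recomputed differences of single members 2 changed sign, both of Csf1r in MSC without bFGF minus ESC, which was 0.01 and became -0.09 with centring and -0.06 with a lowess curve removed. The largest shift of any member was 0.20. Averaging probe sets gave the same values because each member has 1. No paired analysis was possible because each group has 1 array. Signal over background limits Spi1 and Adgre1 in MSC without bFGF and Il34, Spi1 and Irf8 in ESC, which lay under the floor.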

Other observations

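Some genes of the fixed lists had levels that belong to no comparison above, and were chosen after their values were seen. The basophil protease gene Mcpt8 lay under the floor in MSC with and without bFGF and stood at 7.90 in osteoblasts and 9.48 in ESC, while the other 5 mast cell and basophil markers were under the floor in all arrays. The collagen-degrading protease gene Ctsk stood at 9.33 in osteoblasts and 8.04 in ESC, and the gelatinase gene Mmp9 at 5.74 in MSC with bFGF and 5.72 in MSC without, against 8.95 in ESC. The endotoxin receptor gene Tlr4 stood at 8.97 in MSC with bFGF, 9.08 in MSC without bFGF, 8.07 in osteoblasts and 5.03 in ESC, above the floor in all but the last. The receptor tyrosine kinase gene Kit was above the floor in ESC alone, at 8.05.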
